A study of Rattus norvegicus with 8 samples.

Results

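The genes for the voltage-gated sodium channels, the voltage-gated calcium channels with their auxiliary subunits, and the hyperpolarisation-activated cyclic-nucleotide-gated (HCN) channels were compared in rat hypothalamus and hippocampus. Members were all genes whose symbol begins with Scn and a digit, with Cacn, or with Hcn and a number from 1 to 4. This rule gave 41 of the 16514 genes listed in either deposited table, and 39 of them are described here, all listed for hypothalamus and 37 for hippocampus. Each tissue had 4 libraries, numbered 1 to 4, of polyadenylated RNA from male Sprague Dawley rats, an outbred strain. The animals were 2 months old at the start and received an omega-3 fatty acid (DHA) diet with 15% fructose in the drinking water for 6 weeks. Hypothalamus and hippocampus libraries thus shared strain, sex, diet and fructose, and no library of rats without fructose was analysed here. The labels do not say whether the libraries of a tissue came from separate animals, so the spread given here may be partly technical.

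Sodium channel alpha subunits form the pore that carries the rising phase of the action potential, and the beta subunits are single-pass membrane proteins that change its gating and placement. Calcium channel alpha1 subunits form the pores of the L-type (Cav1), presynaptic P/Q-, N- and R-type (Cav2) and low-voltage T-type (Cav3) channels, whose delivery to the membrane depends on alpha2delta and beta subunits. HCN channels open on hyperpolarisation and set resting potential and rhythmic firing. Not every symbol taken by the rule stands for a voltage-gated channel. Most brain gamma subunits (Cacng2, Cacng3, Cacng4, Cacng5 and Cacng7) are better known as auxiliary subunits of AMPA-type glutamate receptors, and Scn7a encodes Nax, a channel that responds to extracellular sodium concentration.

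Values are FPKM, fragment numbers divided by transcript length and library size, as deposited in 1 table per tissue, summed over the loci listed for a symbol and scaled jointly over the 8 libraries. All levels below are scaled FPKM, which are per length and so can be set side by side between genes. Differences are hypothalamus minus hippocampus in mean log2(scaled FPKM + 1), with the standard error of the difference (SE, n = 4 libraries each). On this scale low genes differ by less than their ratio. Levels summed over a class are over its genes in both tables, and their differences are in mean log2 of the sum, with no 1 added. A call, higher or lower in hypothalamus, required a difference of at least 1 and no overlap between the values of hypothalamus and hippocampus libraries. Tissue and table coincide, so no test was made between them and no p-value is given. The 2 tissues are bulk samples, in which fewer cells of a type and less RNA per cell cannot be told apart.

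Of the 39 genes, 37 were in both tables and 30 reached a mean of 1 scaled FPKM over the 8 libraries and were compared. Of these, 7 were called higher in hypothalamus (Scn3a, Scn7a, Cacna1g, Cacna2d2, Cacng2, Hcn3 and Hcn4), 11 were called lower and 12 neither, the sign of Cacng2 turning with the loci used. Among all 10554 genes compared, 13.3% were called higher, 13.4% lower and 26.7% in either direction. Libraries of the 2 tissues did not overlap for 19 of the 30 channel genes, against 53.4% of all genes compared. The median difference was -0.45 over the 30 channel genes and -0.04 over all genes compared. Without joint scaling the median of all genes was 0.18, 65.3% of all calls were higher, against 49.8% with scaling, and the channel genes gave 8 higher and 6 lower.

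**Figure D1:**
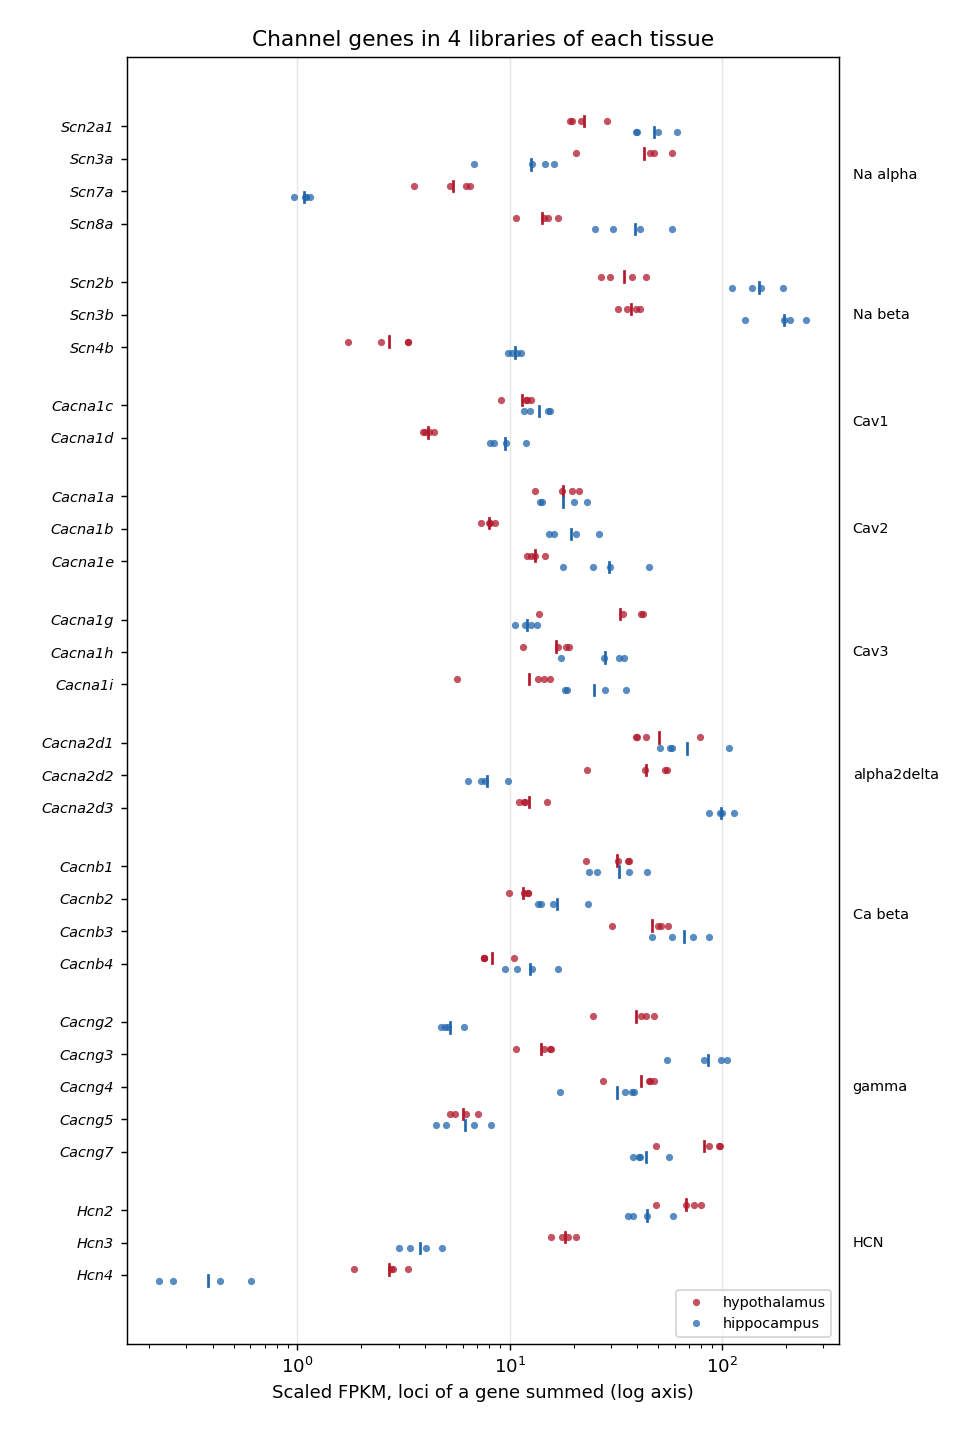
Scaled FPKM (log axis) of the 30 channel genes compared, with 1 point per library, hypothalamus above hippocampus for each gene, and a bar at the mean of 4. Scn2b, Scn3b, Scn4b, Cacna2d3 and Cacng3 lie far to the right in hippocampus, while Cacna2d2, Hcn3, Hcn4 and, with all loci summed, Cacng2 lie to the right in hypothalamus.

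The tables list 2 loci for 17 of the 39 symbols in at least 1 tissue, and the number of loci differs between tissues for 12. The tables hold no coordinates, but runs of consecutive locus numbers hold single-locus genes of the same strand in RefSeq, which allowed a locus to be placed in a plus-strand or a minus-strand run. Of the single-locus genes, 94.3% in hypothalamus and 94.0% in hippocampus lay in a run of their own strand. Genes with 2 loci mostly had 1 in a run of each strand (735 of 1021 in hypothalamus and 918 of 1203 in hippocampus). Among loci of this kind whose deposited FPKM averaged 1 or more, library 1 was the lowest for 62.0% of 531 opposite-strand loci in hypothalamus and 68.9% of 646 in hippocampus. The shares were 36.1% of 632 own-strand loci in hypothalamus and 15.4% of 798 in hippocampus. When the loci were restricted to runs present in both tables, a setting chosen after seeing the data, 5 of 30 channel genes were higher, 11 lower and 14 neither, with 13%, 12.4% and 25.4% of all genes called higher, lower and either way. The libraries of 18 of the 30 then did not overlap, against 52.1% of all genes. Of the 18 genes called with all loci, 16 kept their call under this restriction, and Cacna1g and Cacng2 did not. The restriction left the values of Cacna1b, Cacna1d, Cacna2d3, Hcn3, Hcn4, Scn2a1, Scn3a and Scn7a unaltered, so their calls could not change. Scn3a and Scn7a thus still included their opposite-strand loci. Whether opposite-strand loci hold reads of other transcripts was not tested, and the strand setting of the library kit is not given in the sources used here, so that reads from a gene and from its antisense partner cannot be told apart.

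**Figure D2:**
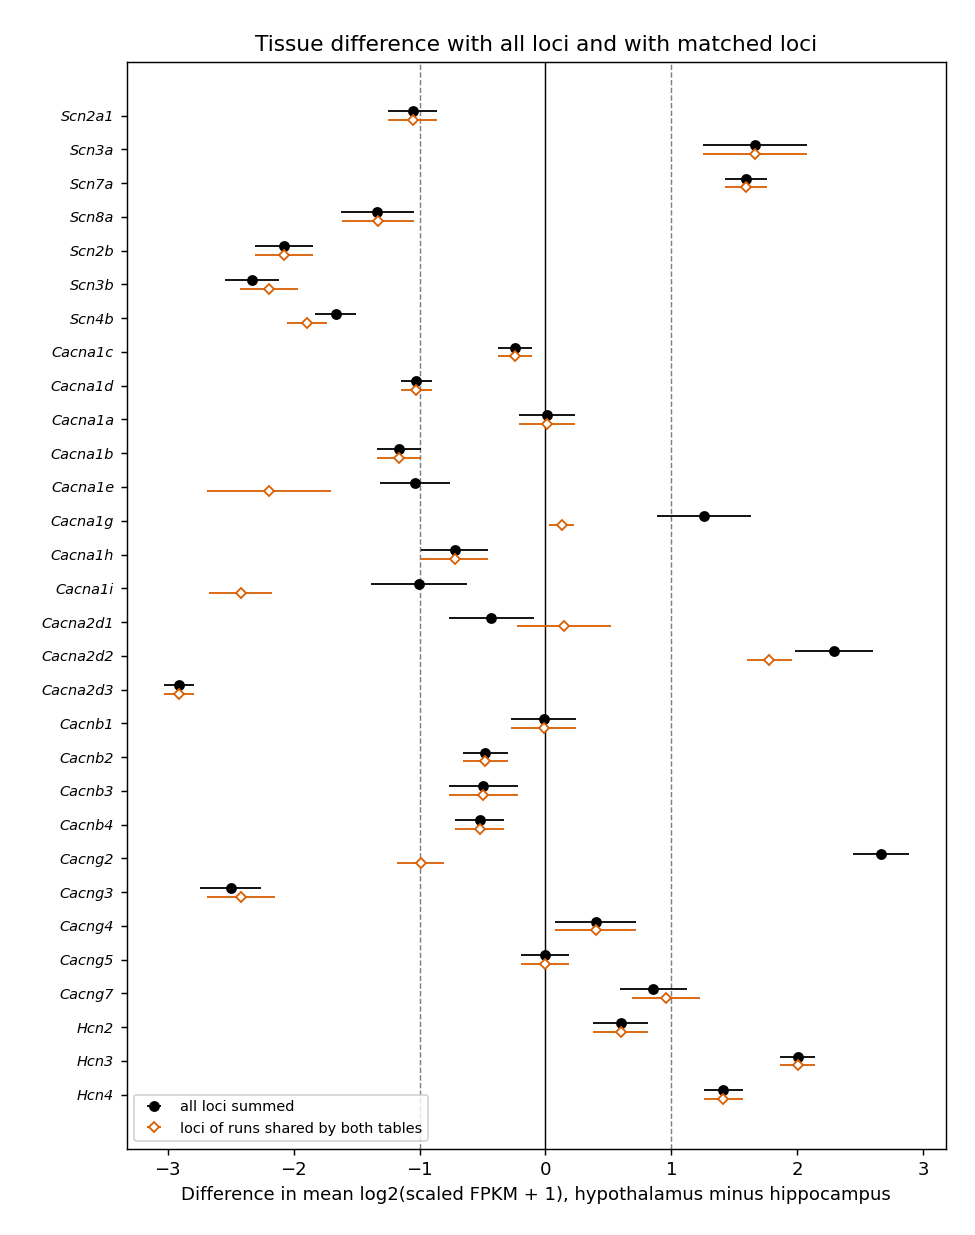
Difference in mean log2(scaled FPKM + 1), hypothalamus minus hippocampus, with SE bars, for the 30 genes. Filled circles use all loci summed, open diamonds the loci of runs found in both tables, and dashed lines mark differences of -1 and 1. Circles and diamonds part most for Cacng2 (2.67 and -0.99), Cacna1i, Cacna1e and Cacna1g.

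Sodium channel alpha genes differed in both directions. Scn3a, an alpha subunit best known from the developing brain, and Scn7a were higher in hypothalamus, whereas Scn2a1, an alpha subunit of unmyelinated axons and excitatory neurons, and Scn8a, the mature alpha subunit of the axon initial segment and nodes, were lower. Scn3a had 20.5, 58.4, 45.8 and 48.0 scaled FPKM in hypothalamus libraries 1 to 4, against 6.80, 16.2, 12.7 and 14.7 in those of hippocampus, a difference of 1.66 ± 0.41. Scn2a1 had 28.7, 19.6, 21.7 and 19.2 in hypothalamus and 50.1, 61.3, 39.3 and 39.8 in hippocampus, a difference of -1.05 ± 0.20. Scn8a had 10.7, 14.4, 16.8 and 15.1 in hypothalamus and 41.2, 58.4, 30.7 and 25.4 in hippocampus, a difference of -1.33 ± 0.29. For each of these genes every hypothalamus library lay on one side of every hippocampus library, and library 1 was the lowest of its tissue for Scn3a in both.

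Scn7a had 5.22, 6.24, 6.51 and 3.54 scaled FPKM in hypothalamus and 1.09, 0.96, 1.14 and 1.09 in hippocampus, a difference of 1.6 ± 0.17, with no overlap. These values sum 2 loci in each tissue, and Scn7a is a gene of the minus strand in RefSeq. The minus-run locus had 5.22, 3.05, 2.82 and 1.31 in hypothalamus and 0.04 to 0.20 in hippocampus. The plus-run locus had 0, 3.19, 3.70 and 2.24 in hypothalamus and 0.81 to 1.05 in hippocampus. With the highest locus in place of the sum, minus-run in hypothalamus but plus-run in hippocampus, the Scn7a difference was 0.99. The call of Scn2a1 ended as deposited (-0.83), under upper-quartile scaling (-0.94), under quantile normalisation (-0.95), without hippocampus library 2 (-0.93) and without hypothalamus library 4 (-0.99). Scn1a and Scn9a were listed for hypothalamus, Scn1a at 1.94, 2.22, 2.21 and 1.40 and Scn9a at 6.32, 4.48, 4.72 and 3.95, and their hippocampus levels were not analysed here. The low alpha subunits of muscle and of sensory neurons, Scn4a (0.24 to 0.59 in hypothalamus, 0.43 to 1.33 in hippocampus) and Scn11a (0.63 to 0.95 in hypothalamus, 0.04 to 0.10 in hippocampus), were under the minimum for comparison. Scn1a, Scn2a1, Scn3a, Scn8a and Scn9a share near-identical stretches, and how reads were divided among them was not tested.

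Both tables list 2 loci of Scn3a, a gene of the minus strand in RefSeq. The minus-run locus had 20.5, 10.6, 11.6 and 10.6 scaled FPKM in hypothalamus and 6.32, 8.09, 4.5 and 3.66 in hippocampus. The plus-run locus was listed at 0 in hypothalamus library 1 and had 47.7, 34.2 and 37.3 in libraries 2 to 4, and it had 0.48, 8.09, 8.23 and 11.1 in hippocampus. The hypothalamus libraries were above the hippocampus libraries at the minus-run locus, and 3 of 4 were above at the plus-run locus. With the highest locus alone the difference was 1.36 and the libraries overlapped.

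**Figure D3:**
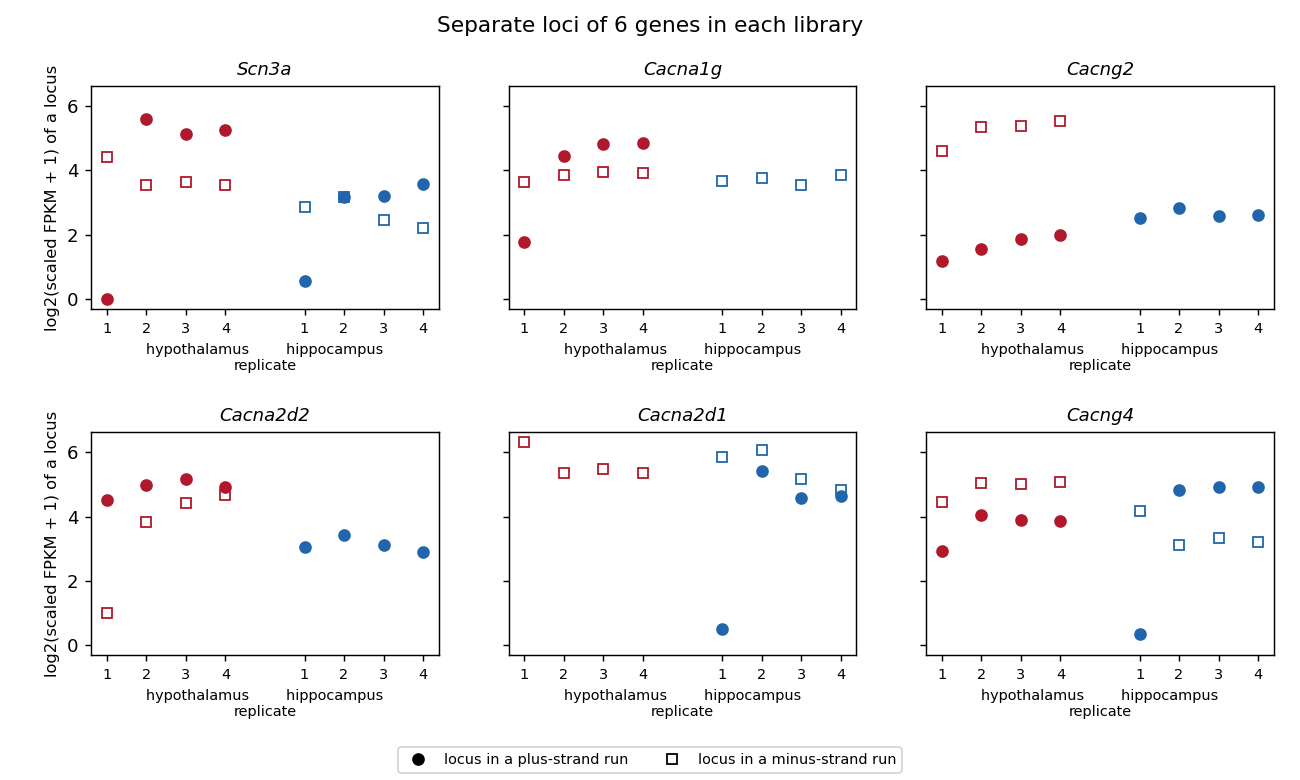
Level of each locus, as log2(scaled FPKM + 1), in the 4 hypothalamus libraries (red, left) and the 4 hippocampus libraries (blue, right) for 6 genes with 2 loci in at least 1 table. Filled circles are loci in plus-strand runs and open squares those in minus-strand runs. In Scn3a, Cacna1g, Cacna2d2, Cacna2d1 and Cacng4, 1 locus is lowest in library 1 of a tissue by a wide margin.

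Within the alpha class the make-up of the libraries differed, a measure that does not depend on how the tables were scaled. The sum is over the 6 alpha genes in both tables and so leaves out Scn1a and Scn9a. Scn3a made up 48.5% ± 12.3 of this sum in hypothalamus and 12.9% ± 4.85 in hippocampus (SD, n = 4). Scn2a1 made up 27.1% ± 10.9 in hypothalamus and 47.4% ± 2.44 in hippocampus, and Scn8a 16.5% ± 1.64 in hypothalamus and 37.7% ± 5.07 in hippocampus, each with no overlap. The ratio of Scn3a to Scn2a1 was 0.71, 2.98, 2.11 and 2.49 in hypothalamus libraries 1 to 4 and 0.14, 0.26, 0.32 and 0.37 in hippocampus libraries. All hypothalamus ratios were above all hippocampus ratios, with hypothalamus library 1 the nearest. These shares and ratios sum both loci of Scn3a, of which the plus-run locus was at 0 in hypothalamus library 1. The minus-run locus alone had 20.5, 10.6, 11.6 and 10.6 in hypothalamus, below Scn2a1 (28.7, 19.6, 21.7 and 19.2) in each library. The summed alpha level was 86.3 ± 14.4 scaled FPKM in hypothalamus and 101 ± 25.9 in hippocampus (SD, n = 4), and the libraries overlapped.

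Scn2a1 and Scn3a are neighbours that run in opposite directions on chromosome 3, and their start regions are shown because the pair differed in opposite directions. The windows are the 250 bases before the start in RefSeq, build GRCr8, written 5′ to 3′ on the gene's own strand, with the 6 searched motifs in capitals where they occur. Neither window held a match.
Scn3a (chr3:70666199-70666448, minus strand): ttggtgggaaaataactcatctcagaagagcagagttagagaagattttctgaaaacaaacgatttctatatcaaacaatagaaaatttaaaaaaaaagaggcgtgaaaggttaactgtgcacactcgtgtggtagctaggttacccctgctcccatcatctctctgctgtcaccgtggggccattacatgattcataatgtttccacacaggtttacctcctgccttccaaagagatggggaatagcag
Scn2a1 (chr3:70710706-70710955, plus strand): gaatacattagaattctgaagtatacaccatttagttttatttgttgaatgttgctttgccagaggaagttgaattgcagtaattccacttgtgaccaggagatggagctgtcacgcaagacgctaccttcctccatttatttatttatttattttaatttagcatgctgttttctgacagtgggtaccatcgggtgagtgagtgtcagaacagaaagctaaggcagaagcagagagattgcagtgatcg

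The sodium channel beta genes Scn2b, Scn3b and Scn4b were lower in hypothalamus. Scn2b, whose product is linked to the alpha subunit by a disulfide bond, had 26.8, 43.9, 37.7 and 29.8 scaled FPKM in hypothalamus libraries 1 to 4 and 194, 111, 153 and 138 in hippocampus, a difference of -2.08 ± 0.23. Scn3b had 32.5, 35.8, 39.5 and 41.3 in hypothalamus and 196, 249, 209 and 129 in hippocampus, a difference of -2.33 ± 0.21. No hypothalamus library reached the lowest hippocampus library for either of them.

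Scn4b, known for its part in the resurgent sodium current, was much less abundant, with 1.73, 3.30, 2.47 and 3.30 scaled FPKM in hypothalamus and 10.2, 10.8, 9.78 and 11.3 in hippocampus, a difference of -1.66 ± 0.16. Summed over these 3 genes the level was 61.0, 83.0, 79.7 and 74.4 in hypothalamus and 401, 371, 371 and 278 in hippocampus, a difference of -2.25 ± 0.15, and of -2.19 ± 0.16 with the loci of shared runs. The lowest hippocampus sum was thus far above the highest hypothalamus sum. The sum was 0.868 ± 0.039 times the summed alpha level in hypothalamus and 3.62 ± 0.74 times in hippocampus (SD, n = 4), with no overlap. Shares within this sum overlapped between tissues. Scn2b made up 46.0% ± 5.42 in hypothalamus and 42.3% ± 9.07 in hippocampus, Scn3b 50.4% ± 5.38 in hypothalamus and 54.6% ± 9.33 in hippocampus, and Scn4b 3.59% ± 0.75 in hypothalamus and 3.04% ± 0.71 in hippocampus (SD, n = 4).

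Scn2b and Scn4b are neighbours on chromosome 8, and their start regions are shown because both were lower in hypothalamus. Capitals mark matches to the E-box letters CAGCTG, of which Scn4b holds 2 and Scn2b none. The windows differ in base composition, with 71.6% G or C and 21 CpG in Scn4b, and 38.8% and 1 CpG in Scn2b.
Scn2b (chr8:54322133-54322382, plus strand): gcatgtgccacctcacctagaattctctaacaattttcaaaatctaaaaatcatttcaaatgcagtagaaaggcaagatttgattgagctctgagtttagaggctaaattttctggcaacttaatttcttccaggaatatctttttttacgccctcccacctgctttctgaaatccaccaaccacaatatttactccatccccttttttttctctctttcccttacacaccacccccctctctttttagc
Scn4b (chr8:54343623-54343872, plus strand): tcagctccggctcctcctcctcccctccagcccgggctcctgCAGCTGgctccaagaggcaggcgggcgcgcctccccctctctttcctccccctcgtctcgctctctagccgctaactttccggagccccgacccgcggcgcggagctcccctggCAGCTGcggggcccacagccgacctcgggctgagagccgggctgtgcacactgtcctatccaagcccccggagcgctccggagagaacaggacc

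Among the L-type genes, Cacna1d (Cav1.3), which opens at more negative potentials than Cacna1c (Cav1.2), was called lower in hypothalamus and Cacna1c was not. Cacna1d had 3.89, 4.19, 4.39 and 3.99 scaled FPKM in hypothalamus and 12, 9.58, 8.41 and 8.05 in hippocampus, a difference of -1.03 ± 0.12. Cacna1c had 9.11, 12.5, 12 and 12.1 in hypothalamus and 15.2, 15.5, 11.7 and 12.5 in hippocampus, a difference of -0.24 ± 0.14, with overlap. The Cacna1d libraries did not overlap, but its difference fell short of 1 as deposited (-0.82), under upper-quartile scaling (-0.93), without hippocampus library 1 (-0.92) and without library 1 of both tissues (-0.90). Cacna1c made up 73.0% ± 2.39 of the Cav1 sum in hypothalamus and 56.9% ± 3.80 in hippocampus, with no overlap (SD, n = 4). These shares sum 2 loci of Cacna1c in each tissue, a gene of the minus strand in RefSeq. Its plus-run locus averaged 7.76 scaled FPKM in hypothalamus and 7.73 in hippocampus. The minus-run locus had 3.14, 3.69, 4.21 and 3.64 in hypothalamus and 6.27, 8.69, 4.86 and 4.17 in hippocampus. At the minus-run locus alone Cacna1c was below Cacna1d in every library, so which was higher turned on the loci used.

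Cacna1f (Cav1.4, the photoreceptor L-type channel) and Cacna1s (Cav1.1, the skeletal muscle one) were near 0. Cacna1s had 0.02 to 0.06 scaled FPKM in hypothalamus and 0.03 to 0.11 in hippocampus. Cacna1f had 0.02 to 0.07 in hypothalamus and 0.05, 0.07, 0.08 and 3.13 in hippocampus libraries 1 to 4. Cacna2d4, which encodes the alpha2delta subunit of photoreceptors, showed the same single high library, with 0.05 to 0.09 in hypothalamus and 0.04, 0.06, 0.06 and 1.92 in hippocampus. A list of 11 pineal and photoreceptor genes, drawn up after these values were seen, summed to 7.66 to 12.7 in hypothalamus libraries and to 5.10 to 488 in hippocampus libraries, the highest being library 4. Of these, 9 were compared and 0 were called, and Crx and Gngt1 were listed at 0 in all hypothalamus libraries. Tph1, Crx, Sag, Gngt1, Pdc and Isl2 reached the minimum mean only through hippocampus library 4. With a single high library the rule of no overlap could not call them, so the lack of calls is no sign of equal levels. The part of such tissue in the levels of Cacna1f and Cacna2d4 was not tested.

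Of the presynaptic Cav2 genes, Cacna1b (N-type) and Cacna1e (R-type) were called lower in hypothalamus and Cacna1a (P/Q-type) neither. Cacna1a had 13.1, 19.6, 21.2 and 17.6 scaled FPKM in hypothalamus and 23.0, 20.1, 14.3 and 14.0 in hippocampus, a difference of 0.01 ± 0.22. Cacna1b had 8.06, 8.01, 8.52 and 7.30 in hypothalamus and 20.5, 26.2, 15.3 and 16.2 in hippocampus, a difference of -1.17 ± 0.18. Cacna1e had 12.6, 13.1, 14.6 and 12.1 in hypothalamus and 29.8, 45.4, 24.7 and 17.8 in hippocampus, a difference of -1.04 ± 0.28. Libraries overlapped for Cacna1a and did not for Cacna1b and Cacna1e.

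The call of Cacna1b ended with values as deposited (-0.95). That of Cacna1e ended without hippocampus library 2 (-0.81), as deposited (-0.81), without hypothalamus library 4 (-1.0, just short of the limit), without library 1 of both tissues (-0.99) and under upper-quartile scaling (-0.93) or quantile normalisation (-0.94). With the loci of shared runs Cacna1e differed by -2.20 ± 0.49, since the plus-run locus of this minus-strand gene was listed for hypothalamus (0, 8.27, 9.88 and 9.63). Cacna1a made up 45.6% ± 4.52 of the Cav2 sum in hypothalamus and 27.2% ± 4.10 in hippocampus, with no overlap. The Cav2 sum was 39.0 ± 4.61 in hypothalamus and 66.8 ± 19.8 in hippocampus (SD, n = 4), a difference of -0.74 ± 0.23.

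The T-type genes, which carry low-threshold calcium spikes and burst firing, gave values that turned on the loci listed. Cacna1g (Cav3.1) had 13.8, 34.0, 41.5 and 42.4 scaled FPKM in hypothalamus and 11.8, 12.6, 10.6 and 13.4 in hippocampus, a difference of 1.26 ± 0.37 with no overlap. Of its 2 hypothalamus loci, the minus-run locus had 11.4, 13.4, 14.4 and 14.2 and the plus-run locus 2.42, 20.7, 27.1 and 28.1. Hippocampus listed the minus-run locus alone, and over that locus the difference was 0.13 ± 0.10, which is no call.

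Cacna1i (Cav3.3) had 5.68, 13.5, 14.5 and 15.4 in hypothalamus and 28.1, 35.2, 18.6 and 18.2 in hippocampus, a difference of -1.0 ± 0.38, and -2.42 ± 0.25 over the plus-run locus shared by both tables. Its call with all loci ended in 7 settings, the smallest difference without library 1 of both tissues (-0.63), followed by that without hypothalamus library 1 (-0.70). Without hippocampus library 1 it was -0.93, and without hippocampus library 2 it was -0.83. Cacna1h (Cav3.2) had 11.6, 18.4, 16.8 and 19.1 in hypothalamus and 34.7, 32.8, 27.9 and 17.5 in hippocampus, a difference of -0.72 ± 0.26 with overlap. The Cav3 sum was 61.7 ± 20.9 in hypothalamus and 65.4 ± 14.7 in hippocampus, a difference of -0.14 ± 0.35, against 33.6 ± 4.17 in hypothalamus and a difference of -0.94 ± 0.19 with the loci of shared runs (SD, n = 4).

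The alpha2delta genes showed the largest contrast among the 30. Cacna2d3 was lower and Cacna2d2 higher in hypothalamus, while Cacna2d1, which with Cacna2d2 encodes the binding sites of the gabapentinoid drugs, overlapped between tissues. Cacna2d3 had 15.0, 11.8, 11.7 and 11.1 scaled FPKM in hypothalamus and 113, 86.6, 98.5 and 99.6 in hippocampus, 8.03 times lower in hypothalamus by the means and a difference of -2.91 ± 0.12. The status deposited for Cacna2d3 was FAIL in 2 hippocampus libraries and OK elsewhere. Cacna2d2 had 23.1, 43.6, 55.3 and 54.2 in hypothalamus and 7.30, 9.87, 7.63 and 6.38 in hippocampus, 5.65 times higher by the means and a difference of 2.30 ± 0.31. The hypothalamus and hippocampus libraries of both genes lay far apart, hypothalamus library 1 being the lowest of its tissue for Cacna2d2 and the highest for Cacna2d3.

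Over the plus-run locus shared by both tables, which is the strand of the gene in RefSeq, Cacna2d2 had 22.1, 30.4, 34.9 and 29.5 in hypothalamus and the same hippocampus values, a difference of 1.78 ± 0.18. Cacna2d1 had 78.9, 39.6, 44.0 and 39.8 in hypothalamus and 56.9, 108, 58.3 and 51.3 in hippocampus, a difference of -0.43 ± 0.34, and 0.15 ± 0.37 with the loci of shared runs. The ratio of Cacna2d2 to Cacna2d3 was 1.54, 3.68, 4.73 and 4.90 in hypothalamus libraries 1 to 4 and 0.06, 0.11, 0.08 and 0.06 in hippocampus libraries. Cacna2d3 made up 11.6% ± 1.22 of the class sum in hypothalamus and 57.1% ± 10 in hippocampus, and Cacna2d2 41.7% ± 14.9 in hypothalamus and 4.39% ± 0.40 in hippocampus (SD, n = 4). These ratios and shares include a minus-run locus of Cacna2d2 that was listed for hypothalamus alone. With the loci of shared runs the hypothalamus ratios were 1.48, 2.57, 2.98 and 2.67. Cacna2d2 then made up 32.8% ± 9.23 in hypothalamus and 5.07% ± 0.84 in hippocampus. The class sum was 107 ± 9.36 in hypothalamus and 177 ± 20.3 in hippocampus, a difference of -0.72 ± 0.10, with no overlap.

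**Figure D4:**
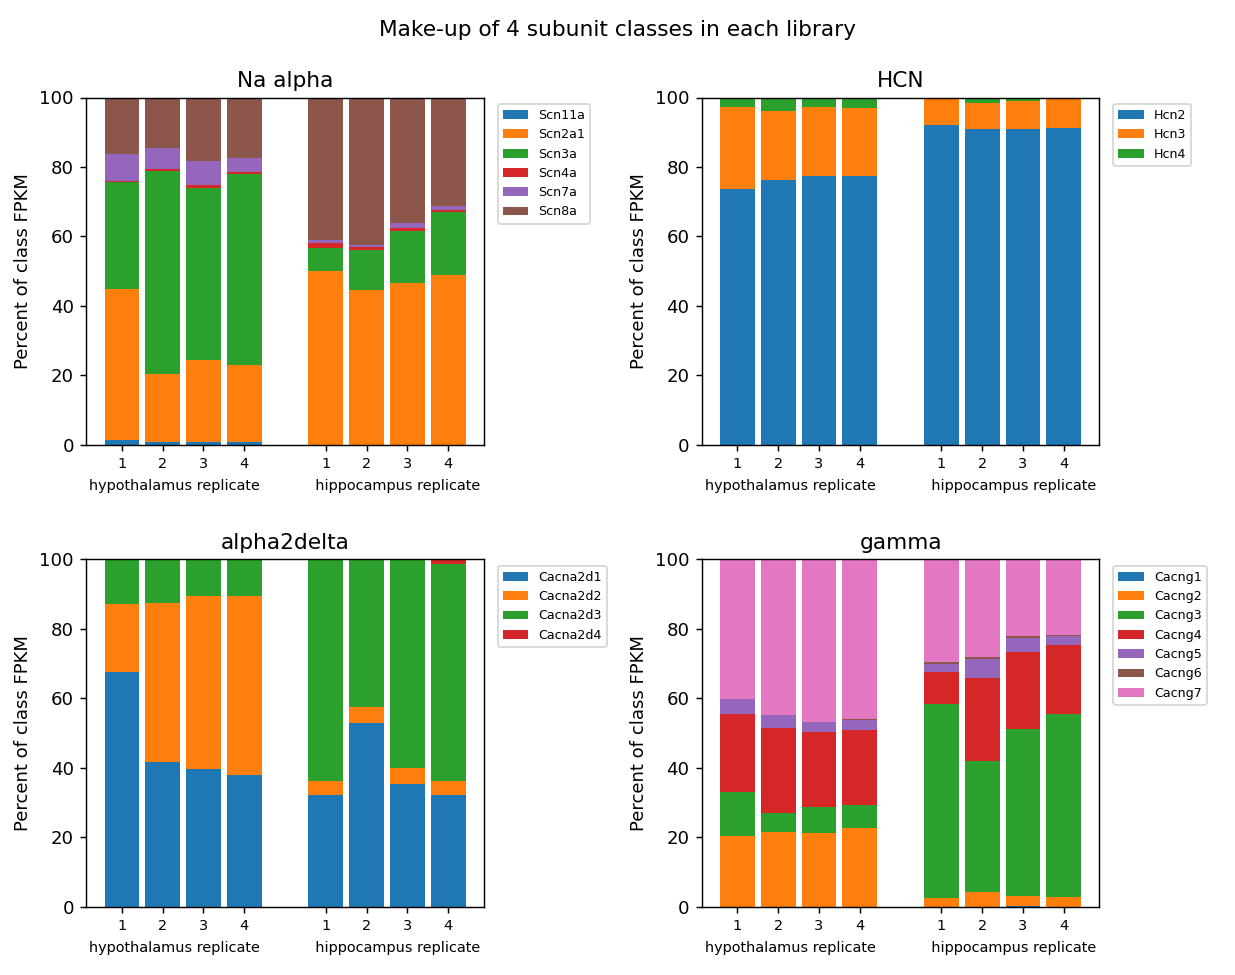
Percent of the summed scaled FPKM of a class held by each of its genes in each library (stacked bars, hypothalamus libraries left, hippocampus libraries right) for sodium channel alpha, HCN (Hcn2, Hcn3 and Hcn4), alpha2delta and gamma. Scn3a, Cacna2d2, Hcn3 and, with all loci summed but not with those of shared runs, Cacng2 take larger shares in every hypothalamus library, and Scn8a, Cacna2d3 and Cacng3 in every hippocampus library.

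The start regions of this opposed pair are shown with matches to the GC-box letters GGGCGG, on either strand, in capitals (2 in Cacna2d2 and 4 in Cacna2d3, of which a pair overlaps). Both are rich in G and C, at 76.8% in Cacna2d2 and 78.8% in Cacna2d3.
Cacna2d2 (chr8:116950856-116951105, plus strand): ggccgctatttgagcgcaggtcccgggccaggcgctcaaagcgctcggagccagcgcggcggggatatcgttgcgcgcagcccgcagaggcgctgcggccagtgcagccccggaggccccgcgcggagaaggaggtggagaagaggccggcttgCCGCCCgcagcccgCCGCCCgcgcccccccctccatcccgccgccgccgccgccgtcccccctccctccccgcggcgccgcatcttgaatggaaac
Cacna2d3 (chr16:4918900-4919149, minus strand): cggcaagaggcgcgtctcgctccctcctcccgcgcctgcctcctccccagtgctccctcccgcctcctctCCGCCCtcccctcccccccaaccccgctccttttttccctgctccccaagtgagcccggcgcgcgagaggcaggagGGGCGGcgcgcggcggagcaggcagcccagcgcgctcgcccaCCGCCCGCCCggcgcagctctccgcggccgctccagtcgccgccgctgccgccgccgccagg

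None of the 4 calcium channel beta genes, whose products bind the alpha1 subunit inside the cell and carry it to the membrane, was called. Cacnb1 had 22.8, 32.3, 36.4 and 36.1 scaled FPKM in hypothalamus and 36.7, 44.6, 25.8 and 23.7 in hippocampus, a difference of -0.01 ± 0.26. Cacnb3 had 30.2, 51.7, 55.6 and 49.8 in hypothalamus and 87.3, 46.8, 58.3 and 73.2 in hippocampus, a difference of -0.49 ± 0.28. Libraries overlapped for both. Cacnb2 had 11.7, 12.3, 12.1 and 9.98 in hypothalamus and 14.0, 23.3, 16 and 13.7 in hippocampus, a difference of -0.48 ± 0.18 with no overlap. Cacnb4 had 10.5, 7.60, 7.54 and 7.53 in hypothalamus and 12.8, 16.8, 9.49 and 10.8 in hippocampus, a difference of -0.52 ± 0.20 with overlap. Cacnb3 was the highest of the class in both tissues by the mean, and the beta sum was 98.6 ± 16.1 in hypothalamus and 128 ± 17.5 in hippocampus, with overlap (SD, n = 4).

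Among the gamma genes, Cacng3 was lower in hypothalamus in every setting that gave it a value, and the call of Cacng2 rested on the loci listed. Cacng3 had 15.4, 10.7, 15.7 and 14.4 scaled FPKM in hypothalamus and 106, 55.4, 82.5 and 99.1 in hippocampus, a difference of -2.50 ± 0.24. No hypothalamus library came near the lowest hippocampus library. Cacng2, which encodes stargazin, had 24.8, 41.6, 43.8 and 48.1 in hypothalamus and 4.74, 6.12, 4.96 and 5.11 in hippocampus, a difference of 2.67 ± 0.22. Hypothalamus had a minus-run locus, the strand of Cacng2 in RefSeq, with 23.5, 39.6, 41.2 and 45.2, and a plus-run locus with 1.28, 1.92, 2.61 and 2.95. The hippocampus value came from a plus-run locus alone, so the level of the minus-run locus in hippocampus was not analysed here. Over the plus-run locus that both tables hold, the difference was -0.99 ± 0.19, the opposite sign, so no direction is given for Cacng2.

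The other gamma genes were not called. Cacng7 had 48.9, 86.5, 97 and 98 scaled FPKM in hypothalamus and 56.2, 41.0, 37.9 and 40.9 in hippocampus, a difference of 0.86 ± 0.27. Without hypothalamus library 1, the 1 that overlapped, Cacng7 was called higher at 1.09, as it was with values as deposited (1.09) and without library 1 of both tissues (1.21). Cacng4 had 27.6, 47.7, 45.1 and 45.9 in hypothalamus and 17.2, 35.0, 38.5 and 37.6 in hippocampus, a difference of 0.40 ± 0.32. Cacng5 had 5.21, 7.07, 5.55 and 6.23 in hypothalamus and 4.52, 8.18, 6.82 and 5.0 in hippocampus, with a difference of -0.00 ± 0.19. For both, hypothalamus and hippocampus libraries overlapped.

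Cacng3 made up 8.13% ± 3.14 of the gamma sum in hypothalamus and 48.6% ± 7.95 in hippocampus, and Cacng7 44.4% ± 3.0 in hypothalamus and 25.3% ± 4.03 in hippocampus (SD, n = 4). The ratio of Cacng7 to Cacng3 was 6.06 ± 2.10 in hypothalamus and 0.54 ± 0.15 in hippocampus, and every hypothalamus ratio was the higher. The muscle-type gamma genes were under the minimum for comparison, Cacng1 listed at 0 in all hypothalamus libraries and at up to 0.23 in hippocampus, and Cacng6 at 0.05 to 0.36 in hypothalamus and 0.49 to 1.01 in hippocampus. The gamma sum was 184 ± 42.1 in hypothalamus and 174 ± 20 in hippocampus, a difference of 0.05 ± 0.21 with overlap. With the loci of shared runs, which leave out the minus-run locus of Cacng2, it was 147 ± 32.7 in hypothalamus and 167 ± 22.7 in hippocampus, a difference of -0.21 ± 0.21 with overlap (SD, n = 4).

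The start region of Cacng3 is shown because it held a match to the left part of the RE1 motif, TTCAGCACC, which was in 0.305% of the 33469 RefSeq windows and in no window of the 25 other channel genes that have one. The match occurs in 2 places, in capitals, and the third run in capitals is a GC box.
Cacng3 (chr1:186632312-186632561, plus strand): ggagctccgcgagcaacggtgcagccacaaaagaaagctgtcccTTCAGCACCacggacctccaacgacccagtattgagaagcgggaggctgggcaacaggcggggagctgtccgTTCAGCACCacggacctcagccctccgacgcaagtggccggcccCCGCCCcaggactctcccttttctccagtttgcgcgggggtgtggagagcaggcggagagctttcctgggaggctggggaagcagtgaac

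Over the 26 channel genes with a window in RefSeq, the median was 63% G or C with 11 CpG, against 51.2% and 5 over all windows. The GC box GGGCGG was in 14 of the 26 and in 30.5% of all windows. The other motifs searched, on both strands, were TATAAA (2 of 26, 12.9% of all windows), TGACGTCA (0 of 26, 1.59%), CAGCTG (6 of 26, 12%) and CAGATG (1 of 26, 14.0%). A match describes the letters and says nothing of a factor.

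Of the HCN genes Hcn2, Hcn3 and Hcn4, the last 2 were called higher in hypothalamus. Hcn3 had 15.7, 17.6, 20.5 and 18.8 scaled FPKM in hypothalamus and 4.79, 3.01, 3.37 and 4.03 in hippocampus, a difference of 2.01 ± 0.14. Hcn4, which encodes the slow pacemaker channel of the heart and of thalamic relay cells, had 1.85, 3.33, 2.77 and 2.83 in hypothalamus and 0.22, 0.60, 0.43 and 0.26 in hippocampus, a difference of 1.41 ± 0.16. The lowest hypothalamus library was above the highest hippocampus library for both genes by a wide margin.

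Hcn2 was the most abundant of these 3 genes in all 8 libraries, with 49.0, 67.5, 79.9 and 73.5 scaled FPKM in hypothalamus and 58.9, 36.0, 38.3 and 44.3 in hippocampus, a difference of 0.60 ± 0.22. Only hypothalamus library 1 and hippocampus library 1 overlapped for Hcn2, whose deposited status was FAIL in 2 hippocampus libraries. The sum of the 3 genes was 88.3 ± 15.7 in hypothalamus and 48.5 ± 10.9 in hippocampus (SD, n = 4), a difference of 0.87 ± 0.21, and 2.32 without Hcn2. Hcn3 made up 20.8% ± 1.88 of this sum in hypothalamus and 7.85% ± 0.37 in hippocampus, Hcn4 3.05% ± 0.49 in hypothalamus and 0.857% ± 0.53 in hippocampus, and neither overlapped. The ratio of Hcn3 to Hcn2 was 0.321, 0.261, 0.257 and 0.256 in hypothalamus libraries 1 to 4 and 0.081, 0.084, 0.088 and 0.091 in hippocampus libraries, so that every hypothalamus ratio was the higher.

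Neighbouring class sums mostly overlapped between libraries, so no full order of classes is given. The Cav1 sum was below every other class sum in each of the 8 libraries. In hippocampus the sodium channel beta sum, over the 3 genes named above, was above every other class sum in each library, at 355 ± 53.3 (SD, n = 4). Both statements hold with all loci summed and with the loci of shared runs. The Cav1 sum was 15.6 ± 1.72 in hypothalamus and 24.1 ± 3.0 in hippocampus, a difference of -0.63 ± 0.12.

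The spread between libraries of a tissue was larger for the channel genes than the median gene. Over the 27 channel genes with a mean of at least 5 scaled FPKM the median coefficient of variation was 19.7% in hypothalamus, against 14.7% over 7879 genes. In hippocampus it was 25.6% over 27 channel genes and 19.2% over 7783 genes. Cacna1b varied least in hypothalamus (6.34%) and Scn4b in hippocampus (6.51%), while Cacna1g (40.3%) varied most in hypothalamus and Cacna1e (39.8%) in hippocampus. The Cacna1g value sums 2 loci in hypothalamus, and its plus-run locus had 2.42 in library 1 and 20.7 to 28.1 in the others. Its minus-run locus averaged 13.4 ± 1.39 (SD, n = 4). How far such sums raise the spread of the channel genes was not tested.

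Proteins that bind these channels were compared as lists. Of the 8 sodium channel partners compared, 0 were higher and 3 lower, with a median of 0.11. Fgf13, which encodes an intracellular FGF that binds the alpha subunit, averaged 49.6 ± 10.8 scaled FPKM in hypothalamus and 207 ± 41.7 in hippocampus (SD, n = 4), a difference of -2.04 ± 0.20. Fgf11 (-1.47 ± 0.19) and Nedd4l, a ubiquitin ligase for sodium channels (-1.60 ± 0.12), were also lower. Ank3, the ankyrin that anchors sodium channels at the axon initial segment, averaged 63.5 ± 5.57 in hypothalamus and 58.2 ± 9.48 in hippocampus, with overlap.

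Of the 13 calcium channel partners compared, 1 was higher and 5 lower, with a median of -0.62. Rrad, a small GTPase that holds down calcium current, was higher at 1.43 ± 0.18, and its relative Rem2 was lower at -2.14 ± 0.25. The active-zone genes Rims1 (-1.61 ± 0.24) and Rimbp2 (-1.23 ± 0.22), whose products tether Cav2 channels at release sites, were lower, as Cacna1b and Cacna1e were. Calm2 (-2.34 ± 0.13) and Calm3 (-1.63 ± 0.29), which encode calmodulin, were lower. These genes have processed copies that can take their reads, so both values are uncertain. With the loci of shared runs Cabp1 became lower (-1.82), against -0.21 ± 0.57 with all loci.

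Of the 4 HCN partners, Flna, which encodes filamin A, was higher (86.7 ± 26.3 in hypothalamus and 8.75 ± 3.32 in hippocampus, a difference of 3.18 ± 0.34). Pex5l, which encodes the trafficking subunit TRIP8b, was lower (16.1 ± 1.32 in hypothalamus and 36.1 ± 12.7 in hippocampus, a difference of -1.06 ± 0.25). Nedd4, the highest of this list, was not called (0.44 ± 0.15). Among 5 AMPA receptor partners of the gamma subunits 0 were higher and 3 lower, namely Cnih3 (-2.69 ± 0.21), Shisa6 (-1.75 ± 0.25) and Olfm1 (-1.12 ± 0.22), with a median of -1.12. Cnih2, the second highest of them, did not differ beyond its spread (0.07 ± 0.26). Of 6 related cation channels only the lysosomal channel gene Tpcn1 was called, higher at 1.05 ± 0.15, and the sodium leak channel gene Nalcn averaged 19.1 ± 3.64 in hypothalamus and 17.5 ± 6.39 in hippocampus.

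Among cell type markers, those of pallial glutamatergic neurons moved with the tissues as a list, and their part in the channel values was not tested. All 7 pallial glutamatergic neuron markers compared were lower in hypothalamus, summing to 102 to 165 scaled FPKM in hypothalamus and 1180 to 2378 in hippocampus libraries, among them Slc17a7 at 0.13 to 0.94 in hypothalamus and 624 to 1118 in hippocampus. General neuron markers gave 3 higher and 3 lower of 12, with a median of -0.77. They summed to 3515 to 4246 in hypothalamus and 3320 to 3722 in hippocampus. The sums lean on Uchl1, which averaged 2137 in hypothalamus and 749 in hippocampus, so they do not show equal neuron content. GABA neuron markers summed to 705 to 882 in hypothalamus and 382 to 608 in hippocampus and gave 1 higher and 1 lower of 7, thalamic markers 2 higher of 6 and striatal markers 3 higher and 1 lower of 7. Astrocyte markers gave 2 higher and 1 lower of 7, oligodendrocyte and precursor markers 0 called of 7, microglia markers 1 higher of 7, and endothelial and mural markers 1 higher and 2 lower of 7. The 1 skeletal muscle marker compared was not called.

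Markers of tissue next to the dissected regions were listed too. All 5 pituitary markers compared were higher in hypothalamus, summing to 101 to 551 in hypothalamus and 1.42 to 1.77 in hippocampus, most of it from Cga and from Pomc, which neurons of the hypothalamus also express. Prl was listed at 0 in all 8 libraries. Gh1 reached at most 0.14 and Fshb at most 0.20 in hypothalamus, and both were listed at 0 in all of hippocampus. The 5 choroid plexus markers compared were not called and summed to 33.8 to 115 in hypothalamus and 60.0 to 6875 in hippocampus. Within hippocampus all 5 were highest in libraries 3 and 4, while libraries 1 and 2 kept the tissues from separating. Kcne2, an accessory subunit gene of HCN and potassium channels that choroid plexus also expresses, stood at 17.1 and 11.8 in hippocampus libraries 3 and 4 and at 1.43 and 1.48 in libraries 1 and 2, against 1.14 to 2.36 in hypothalamus. Of 13 ubiquitous genes 3 were called higher and 3 lower. Gapdh, which has many processed copies, was listed at 427 to 716 in hypothalamus and 4.11 to 8.15 in hippocampus, and Hprt1 at 0 in all hypothalamus libraries. A listed value can thus differ between the tables for a gene that every cell uses.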

How the data were processed

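RNA was extracted with a Qiagen AllPrep kit, selected for poly-A, reverse transcribed with random hexamers and sequenced on a HiSeq instrument, per the labels' protocols. In 1 table per tissue, the authors deposited an FPKM and a status for each locus. Bowtie, Bowtie2, TopHat, TopHat2, Cuffdiff, Cufflinks and the build rn5 are named in the submitters' processing notes. Versions and the annotation are not given in these notes, and the tables hold no coordinates or counts. Read depth is therefore unknown, and no counting interval is given. Steps between the lowest FPKM (up to 0.05, tolerance 0.01 in natural log) were shared by 40.6% to 56.8% of low loci among libraries 2 to 4, and by 4.17% to 6.25% in pairs with library 1, so whole reads could not be recovered for all libraries.

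FPKM of all loci with the same symbol were added and divided by median-of-ratios factors over the 15892 genes in both tables (1.12, 1.07, 1.08 and 1.09 for hypothalamus, 0.892, 0.911, 0.947 and 0.950 for hippocampus). Libraries of a tissue correlated at 0.954 to 0.990 in hypothalamus and 0.932 to 0.976 in hippocampus, across genes. The call used a pseudocount of 1, a minimum mean of 1 over 8 libraries and a log2 difference of at least 1 without overlap. Members described by library had a mean of at least 5 in either tissue or were called. From partner lists the called genes and the 2 highest means are named. Cabp1, Kcne2, Slc17a7, Gapdh and Hprt1 were named after their values were seen. Of the members found by the rule 2, and 1 listed partner, are not reported here and are left out of counts and sums. The members and lists were chosen with earlier results of these data known. A locus was placed in a plus-strand or minus-strand run when at least 60% or at most 40% of the 20 nearest single-locus genes of its chromosome were on the plus strand in RefSeq GRCr8. RefSeq held 38 of the 39 symbols, and Scn2a1 as a synonym of Scn2a. By correlation, same-numbered libraries of the 2 tissues did not deviate together, so the numbers were not used as pairs. Library 1 nonetheless stood apart in both tissues, at opposite-strand loci and in the steps between the lowest FPKM. Such a shared difference is not excluded by those correlations. Alternatives were no scaling, upper-quartile and quantile scaling, another pseudocount, other filters, the highest or a single locus, loci without a status flag, the loci of shared runs, a replicate block, and each library left out. Python 3.11.15, numpy 2.4.6, pandas 2.3.3 and matplotlib 3.10.9 were used.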

Additional observations from a re-analysis of the deposited data

Results flagged for a closer look

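Of 78 groups of 4 libraries examined, 7 had 1 library farther from the others than Dixon's 95% limit for 4 values, where chance gives about 1 in 20. Library 1 stood apart in 6 of them and hippocampus library 2 in the remaining one. In hypothalamus, library 1 was lowest for Cacna1c (9.11 scaled FPKM, the others 12 to 12.5) and for Cacng4 (27.6, the others 45.1 to 47.7). It was highest in hypothalamus for Cacna2d1 (78.9, the others 39.6 to 44.0) and for Cacnb4 (10.5, the others 7.53 to 7.60). In hippocampus, library 1 was lowest for Cacng4 (17.2, the others 35.0 to 38.5) and highest for Cacng7 (56.2, the others 37.9 to 41.0). That low Cacng4 value came from its plus-run locus (0.28, the others 27.4 to 29.3). At the minus-run locus of Cacng4, hippocampus library 1 was the highest (16.9, the others 7.62 to 9.18). Hippocampus library 2 was highest for Cacna2d1 (108, the others 51.3 to 58.3).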

How the results depend on the processing

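Of the 30 genes, 9 called ones kept their call in each alternative that gave them a value. These were all 20 for Hcn3 and 19 of 20 for Scn8a, Scn2b, Scn3b, Scn4b, Cacna2d2, Cacna2d3, Cacng3 and Hcn4. The setting without a value was the single locus for the genes with 2 loci in a table. It was the removal of flagged loci for Cacna2d3 and the filter at a mean of 5 for Hcn4. Several alternatives cannot alter a difference, such as the filters, or the locus settings for a gene with 1 unflagged locus in each table. The number of settings passed thus overstates what was tried. The number called higher was 7 with all loci, 4 with the highest locus of a gene and 2 among the 14 genes with 1 locus in each table. The number called lower was 11, with 6 as deposited, 7 under upper-quartile scaling and 4 among those 14 genes. Leaving out 1 library at a time gave 7 to 8 higher and 8 to 11 lower. Cacng2 changed sign with the loci of shared runs (-0.99 against 2.67). Why single genes cross the limit under other scalings was not tested. Over the settings, of the values that a setting altered, 387 gene differences kept their call, 27 lost it, 3 gained it and 1 changed sign, and 117 class differences and 345 shares moved by less than 1 SD, against 12 and 49 that moved by more. Same-numbered libraries deviated together with correlations of -0.08 to 0.14, and only library 4 correlated best with its own number. With the number as a replicate block, a gene needing all 4 same-numbered pairs of one sign, 7 were higher and 11 lower, as the call rule fixes, since libraries without overlap give every pair one sign. Read depth is unknown, which leaves the lowest members without an interval.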
